A study of Mus musculus with 24 samples.

Results

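The Ugt2 genes encode UDP-glucuronosyltransferases, enzymes of the endoplasmic reticulum that join glucuronic acid to steroids, bile acids and drugs so that they can be excreted. In liver the Ugt2b enzymes carry much of this conjugation. The genes arose by tandem duplication, and their copies lie close together and resemble each other. The 8 genes described here were given by name: Ugt2b1, Ugt2b5, Ugt2b34, Ugt2b35, Ugt2b36, Ugt2b37, Ugt2b38 and Ugt2a3, out of 22350 protein-coding genes on the autosomes and X. All 8 were found in the mm9 annotation, within 534.4 kb of chromosome 5. A peak belonged to a gene when it overlapped the gene body or the 10 kb on either side by at least 1 bp, which gave 54 of the 119348 regions that the peaks of the series form.

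The values are peaks of H3K27ac, the acetylated form of histone H3 at lysine 27, which marks active promoters and enhancers, measured by ChIP-seq in mouse liver. The 4 groups were C57BL/6J (B6) males, B6 females, CAST/EiJ (CAST) males and CAST females, 2 inbred strains of different subspecies, all 8 weeks old. Each group had 5 livers and 1 input control, which makes 24 samples. Groups follow the sample titles: in the labels, another field names the strain by sex (CAST for females, B6 for males), which goes against the titles of 2 groups of livers, or 12 samples with their inputs.

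The deposited files hold 1 peak list per group, called on the pooled livers. No value below therefore has a spread between livers and no p-value can be given. The lists do not state read depth, which was not analysed here. A difference is described by its size and set beside the share of all genes or regions that differ as much. The lists hold 79818 (B6 male), 82176 (B6 female), 90228 (CAST male) and 84645 (CAST female) peaks and cover 65.3 to 72.8 Mb. Of 7 hepatocyte marker genes, 6 had a peak within 1 kb of their start in every list, and Serpina1a, a member of another duplicated cluster, had no covered base in any list. Of 11 markers of other liver cells, 3 or 4 had such a peak, and of 4 markers of other tissues 1 had it (Gfap, in every list).

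The sequences before the gene starts are shown because they bear on how alike the copies are and how well short reads can be placed there. Each is the last 120 bases before the annotated start in mm9, read 5′ to 3′ on the strand of the gene, and the capitals mark a C/EBP-type match. C/EBP factors are transcription factors of hepatocytes.
Ugt2b5: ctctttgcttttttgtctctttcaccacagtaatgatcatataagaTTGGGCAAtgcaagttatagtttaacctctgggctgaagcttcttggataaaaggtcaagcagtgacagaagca
Ugt2b37: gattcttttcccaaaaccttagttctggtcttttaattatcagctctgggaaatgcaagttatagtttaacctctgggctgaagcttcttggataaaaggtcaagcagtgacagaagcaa
Ugt2b38: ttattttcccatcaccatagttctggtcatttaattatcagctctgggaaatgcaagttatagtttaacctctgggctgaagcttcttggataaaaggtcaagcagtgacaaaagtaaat
Ugt2b36: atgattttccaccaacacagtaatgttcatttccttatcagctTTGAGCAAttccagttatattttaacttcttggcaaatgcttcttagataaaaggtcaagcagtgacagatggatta
Ugt2b1: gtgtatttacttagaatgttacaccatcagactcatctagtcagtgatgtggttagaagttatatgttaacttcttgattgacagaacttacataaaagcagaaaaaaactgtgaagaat
Ugt2a3: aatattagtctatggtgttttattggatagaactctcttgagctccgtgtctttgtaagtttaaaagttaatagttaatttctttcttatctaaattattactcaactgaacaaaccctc
They lie at chr5:87569366-87569485, chr5:87683830-87683949, chr5:87853229-87853348, chr5:87521581-87521700, chr5:87355556-87355675 and chr5:87766221-87766340, all on the minus strand.

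Motifs were searched on both strands of the 250 bases before each start. A C/EBP-type match (TTGC, 2 bases, AA) occurred before Ugt2b36 and Ugt2b5, against 9.16% of genes. STAT-type (TTC, 3 bases, GAA) and HNF4-type (CAAAG, 2 bases, CA) matches occurred before none of the 8, against 6.83% and 5.10%. A match is a run of letters and does not show that a factor binds there.

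Ugt2b5, Ugt2b37 and Ugt2b38 are the closest copies. Their coding sequences were 92.8% to 95.1% identical, and the 250 bases before their starts 82.4% to 91.7%. The other 25 pairs of genes reached 68.0% to 88.7% and 49.3% to 63.2%. Because the authors kept uniquely mapped reads, the share of 50-base words that occur once in the mm9 genome was computed, 50 bases being the read length of the study. It was 88.6% on a grid over the genome and 87.0% over the 272.0 kb of the gene windows. Within 1 kb of the start it was 57.9% at Ugt2b38, 70.9% at Ugt2b5 and 89.5% at Ugt2b37, and between 88.4% and 100.0% at the other 5 genes. At Ugt2b38, 842 of the 2001 words around the start were repeated elsewhere, and 561 of these also lay in the window of Ugt2b5 and 204 in that of Ugt2b37. Around the start of Ugt2b5, 583 words were repeated, 561 of them in the window of Ugt2b38.

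Bases under a peak in any list were almost wholly unique, from 95.9% at Ugt2b37 to 100.0% at Ugt2a3 and Ugt2b38. The other bases of the windows were unique in 73.9% (Ugt2b37) to 92.4% (Ugt2b5). A missing peak in a repeated stretch is thus not a measured absence of the mark. The reference is the same for both sexes of a strain. CAST reads were placed on a CAST genome, whose repeats were not analysed here.

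**Figure D1:**
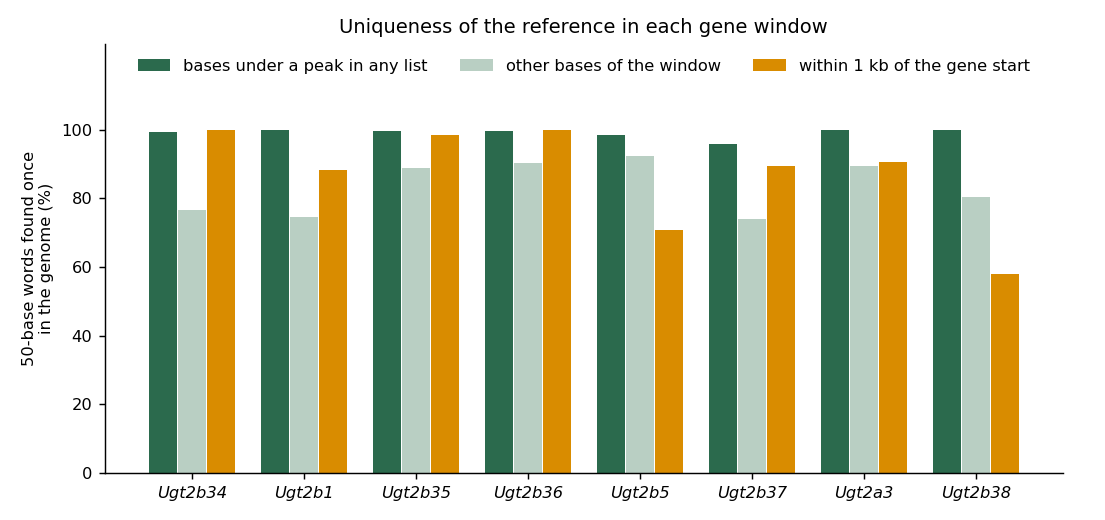
Share of 50-base reference words found once in the genome (%, y axis) for each gene window (x axis), separately for bases under a peak of any list, the other bases of the window and the bases within 1 kb of the gene start. The start of Ugt2b38 (57.9%) is the lowest bar, and bases under peaks are at 95.9% or above in every window.

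Together the windows held most peak coverage in B6 males. The B6 male list had 43 peaks over 30773 bp, the B6 female list 39 over 24488 bp, the CAST male list 39 over 24390 bp and the CAST female list 36 over 21922 bp. Males thus had more covered bases than females in both strains, by 1.26-fold in B6 and 1.11-fold in CAST. B6 had more than CAST in both sexes, by 1.26-fold in males and 1.12-fold in females. None of these ratios passes 1.5-fold. Over all genes covered in both lists, the median log2 ratio of female to male was -0.05 in B6 and -0.11 in CAST, against -0.33 and -0.15 for the windows. The median log2 ratio of CAST to B6 was 0.01 in males and -0.05 in females, against -0.34 and -0.16 for the windows. The fold enrichment, averaged over covered bases, went the other way between strains: it was 2.95 in the male and 3.28 in the female list of B6 and 3.45 in both CAST lists. The median widths of the peaks in the windows were alike, at 560 to 589 bp. A median does not show single wide peaks, such as that of 2770 bp at the start of Ugt2b1 in B6 males. Over the whole lists the B6 male median was the highest, 680 bp against 578 to 619 bp.

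The 54 regions, each a chain of overlapping peaks, were called in all 4 lists in 23 cases, in 3 lists in 4, in 2 lists in 10 and in 1 list in 17. The 23 had a median width of 870 bp. The 17 had a median width of 286 bp and a highest fold enrichment of 2.81. Of 47 regions called in B6, 14 were male-only (29.8%, against 17.4% of all regions called in B6) and 5 female-only (10.6%, against 17.5%). Of 41 regions called in CAST, 8 were male-only and 8 female-only (19.5% each, against 21.5% and 14.1%). Regions called in both sexes of 1 strain and neither list of the other were few: 2 of 28 for B6 (7.14%, against 8.4%) and 1 of 25 for CAST (4.0%, against 11.8%). Both shares between strains were below the background, and the shares above it were those of B6 male-only and CAST female-only regions. In the same direction in both strains, 4 regions were female-only (7.41% of the 54, against 1.23% of all regions) and 3 male-only (5.56%, against 2.35%). Of the 4 female-only regions, 1 rests on peaks of the 2 strains that overlap only at their edges.

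A gene entered the comparison of covered bases with at least 1000 bp in 1 list of the pair, and passed when it differed by 1.5-fold. Between sexes, Ugt2b37 passed as female-higher in both strains, 1 of the 7 genes that entered in each, where 3.46% of all genes did so in B6 and 1.82% in CAST. Ugt2b1 and Ugt2b36 passed as male-higher in B6, against 4.9% of all genes. None of the 7 passed as male-higher in CAST, where 8.05% of all genes did. Between strains no gene passed. The background was 9.71% of genes for CAST-higher and 4.66% for B6-higher in males, where 6 entered, and 9.43% and 10.1% in females, where 7 entered.

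**Figure D2:**
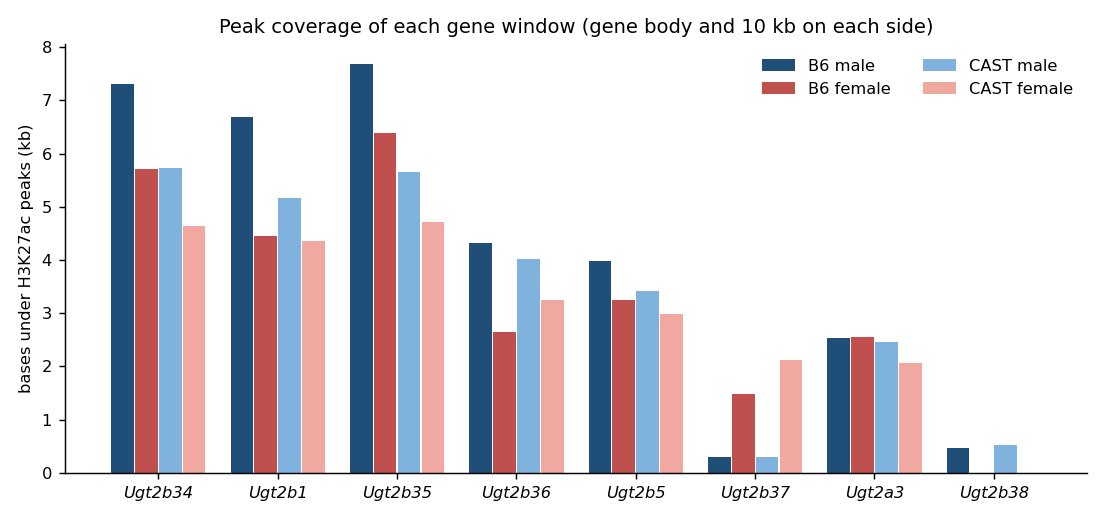
Bases under H3K27ac peaks (kb, y axis, from 0) in the window of each of the 8 genes (x axis, in order along the chromosome), 1 bar per merged list of 5 pooled livers, with no error bars because the lists hold no replicates. Ugt2b37 alone has taller female than male bars in both strains (1474 and 2126 bp against 307 and 306 bp), and Ugt2b38 has none in females.

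Ugt2b37 (ENSMUSG00000057425.3, chr5:87669518-87683829, minus strand) was covered over 307 bp in B6 males, 1474 bp in B6 females, 306 bp in CAST males and 2126 bp in CAST females. Both female lists lie above both male lists, by 4.80-fold in B6 and 6.95-fold in CAST. The male lists had 1 peak each, the B6 female list 4 and the CAST female list 5. In whole liver, more cells with the mark and more of the mark per cell cannot be told apart.

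The male peak fell in a region called in all lists, chr5:87685195-87685937, 1.37 kb before the start. Its fold enrichment was 2.79 and 3.86 in B6 males and females, and 3.99 and 4.43 in CAST males and females. It covered 307 and 306 bp in males and 719 and 713 bp in females, so that the sexes differed in width in both strains.

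3 further regions of Ugt2b37 were called in females of both strains and in no male list. The nearest to the start, 0.87 kb before it at chr5:87684699-87684995, had a fold enrichment of 4.21 in B6 and 3.70 in CAST. The others were weaker. The region at chr5:87686328-87687121, 2.50 kb before the start, had 1.88 and 2.19. Its B6 female peak ran from -2733 to -2499 bp of the start and its CAST female peak from -3292 to -2681 bp. The 2 peaks thus overlap only at their edges. The region at chr5:87682034-87682372, in an intron 1.46 kb inside the gene, had 1.98 and 2.36. In that order, the −log10 q-values of these 2 regions were 2.2 and 2.80 in B6 females, and 3.72 and 5.68 in CAST females. A region 0.38 kb inside the gene, at chr5:87683220-87683450, was called in CAST females only, at 2.81. No peak covered the start itself, which lies in a run of 43 repeated words, so that this is not a measured absence of the mark.

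The 297 bases of the region 0.87 kb before the start are shown because it is the strongest region of the cluster called in 1 sex of both strains. All of its 50-base words are unique, so that reads from it can be told from those of Ugt2b5 and Ugt2b38. The sequence is the mm9 reference on the minus strand, 5′ to 3′.
Ugt2b37 upstream region: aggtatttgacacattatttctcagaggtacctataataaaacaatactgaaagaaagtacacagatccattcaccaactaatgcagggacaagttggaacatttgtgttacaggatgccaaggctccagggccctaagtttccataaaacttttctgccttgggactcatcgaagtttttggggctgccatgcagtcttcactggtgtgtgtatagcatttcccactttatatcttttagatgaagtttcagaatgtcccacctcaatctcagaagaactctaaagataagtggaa
None of the motifs named above occurred in it. In windows of 297 bases at the centres of all 119348 regions, the C/EBP-type letters occurred in 12.8%, the STAT-type in 9.17% and the HNF4-type in 9.43%.

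**Figure D3:**
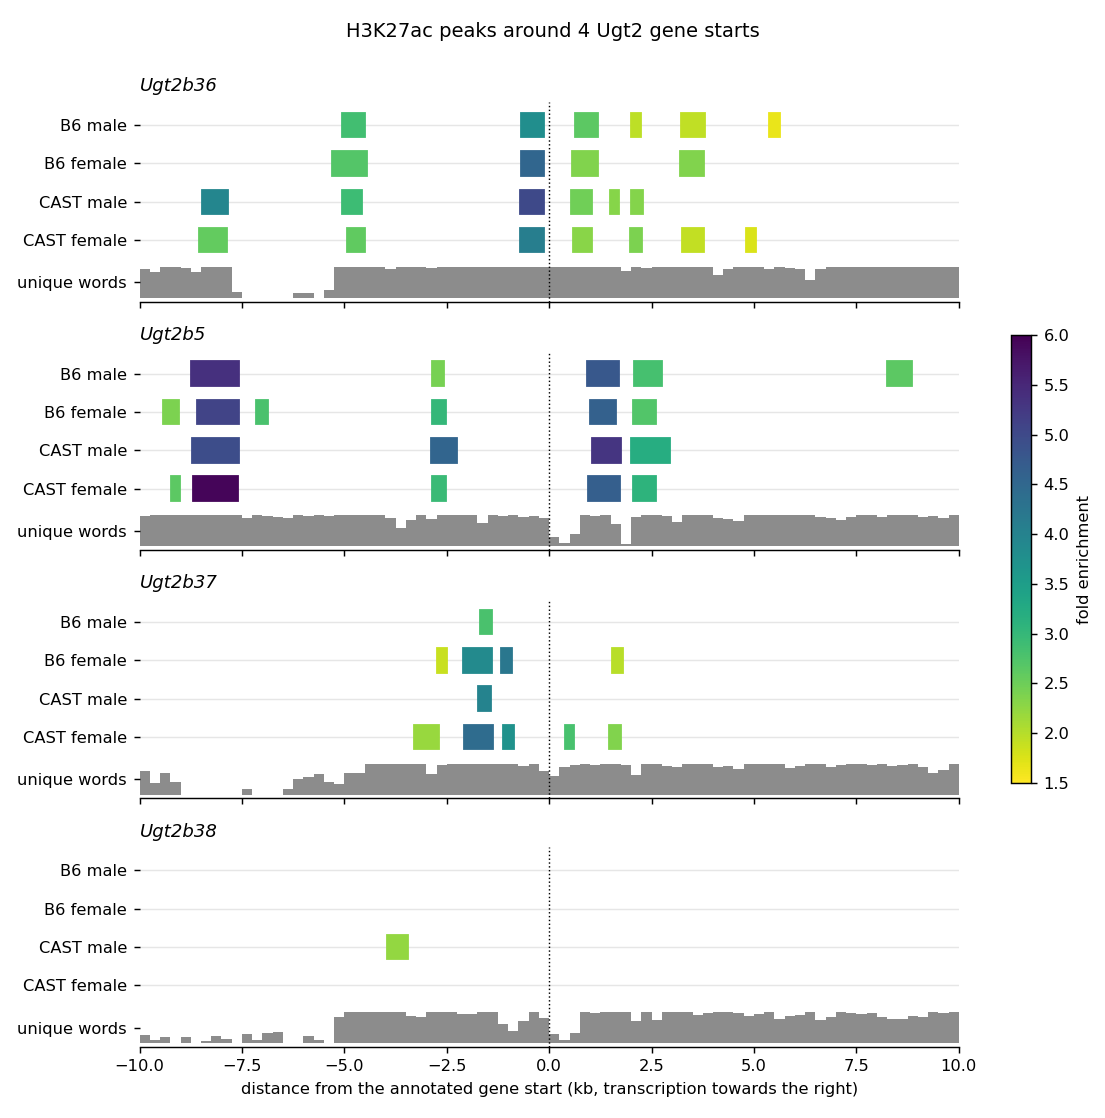
Peaks of the 4 lists (rows) within 10 kb of the start of Ugt2b36, Ugt2b5, Ugt2b37 and Ugt2b38 (panels), by distance from the start (kb, x axis, dotted line at 0), coloured by the fold enrichment of the authors' peak caller, and, as grey bars, the share of unique 50-base words in bins of 250 bases (full height 100%). Ugt2b37 shows 1 peak in each male list and 4 or 5 in the female lists, and the bins just after the starts of Ugt2b5 and Ugt2b38 hold few unique words.

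Ugt2b38 (ENSMUSG00000061906.5, chr5:87838967-87853228, minus strand), the copy nearest in sequence to Ugt2b37, had little coverage: 475 bp in B6 males, 530 bp in CAST males and none in either female list. The male peaks were at different places. In B6 it lay 23.8 kb past the start, at chr5:87828787-87829441 on the far edge of the window, with a fold enrichment of 2.17. In CAST it lay 3.44 kb before the start, at chr5:87856669-87857198, with 2.24. Neither was called in a second list. No list had a peak within 1 kb of the start, where 57.9% of the words are unique. In the repeated remainder, 842 of 2001 words, a missing peak is not a measured absence of the mark. The same share at Ugt2b5 was 70.9%. There the nearest peak began 920, 1007, 1052 and 951 bp inside the gene in B6 males, B6 females, CAST males and CAST females. These peaks lie past the repeated stretch at the start, and those of B6 females and CAST males are not within 1 kb of the start. Their far ends border a second repeated stretch, with 8.0% unique words in the bin centred 1875 bp inside the gene. With under 1000 bp in every list, Ugt2b38 did not enter the comparison.

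Ugt2b5 (ENSMUSG00000054630.6, chr5:87553981-87569365, minus strand), the third of these close copies, was covered over 3990 bp in B6 males, 3255 bp in B6 females, 3414 bp in CAST males and 2985 bp in CAST females. Males were higher by 1.23-fold in B6 and 1.14-fold in CAST. It held the region with the highest fold enrichment of the cluster in any list, chr5:87576930-87578116, 7.57 kb before the start, with 5.38, 5.09, 4.95 and 5.93 in the same order. In CAST males the region nearest to the start and the one just before the start of Ugt2b36 were higher, and in B6 females the start region of Ugt2b1, also at 5.09, was marginally so. The region nearest to the start, chr5:87567620-87568445, began 0.92 kb inside the gene, between 2 repeated stretches, at 4.79, 4.62, 5.31 and 4.65. Both were called in all lists and differed little between them. A region further out, 9.01 kb before the start at chr5:87578372-87578796, was called only in females, at 2.39 in B6 and 2.64 in CAST. It is the fourth region of the cluster that was female-only in both strains.

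Ugt2b36 (ENSMUSG00000070704.4, chr5:87494952-87521580, minus strand) had the most regions, 14, most of them weak. It was covered over 4315 bp in B6 males, 2643 bp in B6 females, 4019 bp in CAST males and 3258 bp in CAST females. Males were higher in both strains, by 1.63-fold in B6 and 1.23-fold in CAST. The region with the highest fold enrichment, 0.12 kb before the start at chr5:87521701-87522301, did not follow that order: it had 3.80 and 4.53 in B6 males and females and 5.01 and 4.10 in CAST males and females, over 567 to 601 bp. A second region at the start, chr5:87520386-87521042, had 2.64, 2.35, 2.48 and 2.31.

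The lower coverage of Ugt2b36 in B6 females lay inside the gene, where 1225 bp were covered against 2914 bp in B6 males, while the flanks had 1418 and 1401 bp. Of its 14 regions, 6 were male-only in B6, none female-only in B6, and 4 male-only and 2 female-only in CAST. 2 were male-only in both strains: chr5:87496196-87496661, in an intron 24.9 kb past the start, at 2.12 in B6 and 2.13 in CAST, and chr5:87510147-87510873, overlapping an exon 10.7 kb past the start, at 2.06 and 2.30. The only region of the cluster called in both CAST lists and in neither B6 list was also here, chr5:87529419-87530136, 7.84 kb before the start. Its fold enrichment was 3.94 in CAST males and 2.58 in CAST females. Of its words 96.2% are unique, and it borders a stretch with few unique words.

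Ugt2b1 (ENSMUSG00000035836.2, chr5:87345663-87355555, minus strand) and Ugt2b34 (ENSMUSG00000029260.9, chr5:87318792-87335962, minus strand) are neighbours whose windows share 10300 bp, so part of their coverage is counted for both. Ugt2b1 was covered over 6680 bp in B6 males, 4450 bp in B6 females, 5156 bp in CAST males and 4364 bp in CAST females. The B6 male list stands above the other three, and its 1.501-fold excess over B6 females lies at the threshold. In CAST the excess was 1.18-fold. The region that spans the start, chr5:87352810-87355890, covered 2770 bp in B6 males and 1618 to 1937 bp in the other lists, while its fold enrichment was lowest in B6 males: 3.41, 5.09, 4.66 and 4.16. The B6 male list thus had the most covered bases and the lowest fold enrichment at this promoter. It held 1 unbroken peak there. The B6 female, CAST male and CAST female lists held 4, 3 and 3 separate peaks over a similar span. The gaps between those peaks are not counted as covered, so the difference in covered bases is not one of span.

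Ugt2b34 was covered over 7304, 5716, 5734 and 4634 bp in the same order, 1.28-fold more in males in B6 and 1.24-fold more in CAST. Its start region, chr5:87334601-87335953, was even, at 2.44, 2.39, 2.86 and 2.64. The highest region, chr5:87315041-87316455, 19.5 kb past the start and beyond the end of the gene, had 3.22, 3.41, 3.40 and 2.79. Between this start region and Ugt2b1, 0.19 kb before the start at chr5:87336152-87336784, lay the third region called in males alone in both strains. It was weak, at 1.65 in B6 males and 2.09 in CAST males. It counts for both genes.

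Ugt2b35 (ENSMUSG00000035811.8, chr5:87429885-87442299), the only one of the 8 on the plus strand, had the highest coverage of the 8 except in CAST males, where Ugt2b34 was higher, with 7675 bp in B6 males, 6395 bp in B6 females, 5655 bp in CAST males and 4717 bp in CAST females. B6 was higher than CAST by 1.36-fold in both sexes, and males higher than females by 1.20-fold in both strains. The region over the start, chr5:87428891-87431307, had a fold enrichment of 3.48, 3.73, 4.16 and 4.15. That 5.49 kb before it, chr5:87422215-87424391, had 3.44, 3.76, 4.69 and 4.77 and covered 2164, 2057, 1456 and 1161 bp. At both, the CAST lists had the higher fold enrichment, and at the second the narrower peaks. Both regions of the cluster called in B6 only were at this gene: chr5:87432635-87433042 in an intron, at 1.92 in males and 1.66 in females, and chr5:87445875-87446203 past the end, at 2.54 and 2.17.

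Ugt2a3 (ENSMUSG00000035780.2, chr5:87753997-87766220, minus strand), the only Ugt2a gene of the 8, was the most even. Its coverage was 2534 bp in B6 males, 2555 bp in B6 females, 2464 bp in CAST males and 2070 bp in CAST females, in the same 3 regions in every list. The region at the start, chr5:87765348-87766213, had a fold enrichment of 3.81 and 3.78 in B6 and 4.75 and 4.68 in CAST. The sexes were alike there, and CAST was higher by 1.25-fold in males and 1.24-fold in females.

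**Figure D4:**
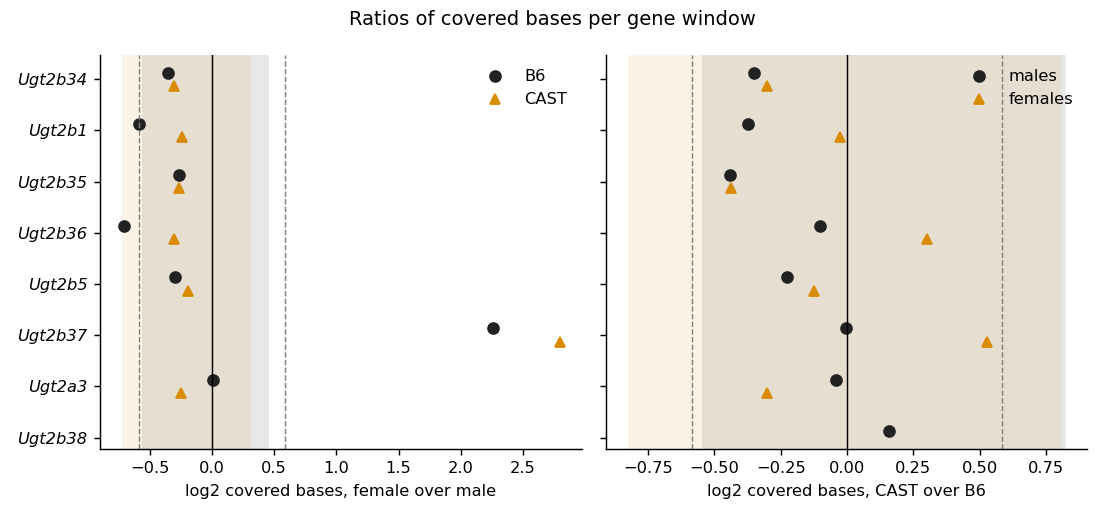
Log2 ratio of covered bases for each gene window (y axis), female over male on the left (circles B6, triangles CAST) and CAST over B6 on the right (circles males, triangles females), with dashed lines at 1.5-fold and shaded bands from the 5th to the 95th percentile of all genes covered in both lists. Ugt2b37 lies far above the bands between sexes (2.26 in B6, 2.80 in CAST), Ugt2b38 has no ratio where a list has no covered base, and no gene passes a dashed line between strains.

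Where a region was called in both lists of a pair, its fold enrichment could be compared directly. CAST males exceeded B6 males in 24 of 29 shared regions (82.8%, against 66.3% of all shared regions), with a median ratio of 1.17 against 1.06. CAST females exceeded B6 females in 15 of 28 (53.6%, against 52.1%). B6 females exceeded B6 males in 17 of 28 (60.7%, against 52.8%), and CAST females exceeded CAST males in 7 of 25 (28.0%, against 37.4%). The excess in CAST males goes with fewer covered bases there than in B6 males. Each list enters 2 of these 4 comparisons.

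Other genes of glucuronidation were compared in the same way. Of 27 listed genes, other transferases, suppliers of the UDP-glucuronic acid that the enzymes use, a hydrolase, exporters and regulators, 26 were in the annotation. Between sexes none of the 25 that entered in B6 passed 1.5-fold, against 3.46% of all genes as female-higher and 4.9% as male-higher. Of the 24 that entered in CAST, 1 passed, as male-higher, against 8.05% of all genes, which is no excess. It was Nfe2l2, which encodes the stress regulator NRF2, with 6705 bp in males and 4460 bp in females. None passed as female-higher in CAST, against 1.82% of all genes. Between strains, 3 were CAST-higher and 2 B6-higher in males, and 2 CAST-higher and 4 B6-higher in females, of 25 that entered in each sex. The shares over all genes were 9.71% and 4.66% in males and 9.43% and 10.1% in females, so these counts lie near the background.

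Ugt1a1, the bilirubin-conjugating enzyme, was covered over 1168 bp in B6 males, 1399 bp in B6 females, 6065 bp in CAST males and 6909 bp in CAST females, and had a peak within 1 kb of its start in the CAST lists only. Ugt1a2 had 2160, 2415, 7798 and 8079 bp. The windows of the Ugt1a genes overlap, so these are not separate results. Ugt2a1, the next gene of the Ugt2 cluster, went the other way, with 2033 bp in B6 males, 1417 bp in B6 females, 258 bp in CAST males and 221 bp in CAST females. Ugt3a1 had 7593, 6236, 4483 and 3695 bp. Ugt2a2 is not a gene of its own in this annotation and has no value. Ugdh, which makes UDP-glucuronic acid, was even, with 5758, 5494, 5393 and 4445 bp.

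The genes whose coverage over the 4 lists was most like that of the combined windows were Cpt1a, which encodes an enzyme of fatty acid oxidation, Tmc7 and Zbtb12, of 4509 genes with at least 5000 bp on average. Likeness was the Euclidean distance of centred log2 covered bases over the 4 lists, 0.0384 for Cpt1a, 0.0534 for Tmc7 and 0.0586 for Zbtb12. With 4 values per gene, such closeness is only a description.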

How the data were processed

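H3K27ac ChIP-seq peaks of 20 livers (4 groups of 5) with 4 inputs were analysed as 4 merged peak lists. As the study describes it, the authors aligned reads with Bowtie2 (B6 to mm9, CAST to a CAST genome made from mm9, with coordinates converted back), kept unique reads, pooled the replicates of a group and called peaks with MACS2 against input. For each peak the authors deposited a score, the ratio of signal to local background (fold enrichment), the −log10 of the q-value and p-value (the latter not used), and the summit offset. Only peaks on the autosomes and X were used. The fold enrichment was read as deposited. No peak number is missing within the span of the windows in any list.

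Here, with Python 3.11.15, numpy 2.4.6, pandas 2.3.3, numba 0.67.0 and edlib 1.3.9, peaks were assigned to gene windows (GENCODE vM1 on NCBIM37, the mm9 assembly) at a minimum overlap of 1 bp, and covered bases were clipped to the window. Positions are 1-based. Regions of the CAST and B6 male lists with 1 peak each (24) had a median absolute midpoint offset of 55.8 bp and a median signed offset, CAST minus B6, of 16.8 bp. A gene start is that of its most upstream transcript. Word uniqueness counts exact 50-base words on both strands and takes no account of mates or mismatches. It is therefore neither a measure of mapping nor a bound on it. The counting scripts were tested on simulated data.

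The genes, gene lists and thresholds were chosen with earlier results of these data known. Named were all 8 genes, the regions at their starts, the strongest region of each, regions only in 1 sex of both strains or 1 strain of both sexes, Ugt2a1, Ugt2a2, the 3 genes most like the windows, and from the glucuronidation list Ugt1a1, Ugdh and genes past 1.5-fold in both strains or both sexes; Nfe2l2 was added after its values were seen. Alternatives varied the flank, the q-value limit, the list length, the fold enrichment, word uniqueness, the overlap rule and, added after seeing the data, the minimum of covered bases.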

Additional observations from a re-analysis of the deposited data

How the results depend on the processing

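No paired analysis was possible because each list pools the livers of its group, and for the same reason no liver could be left out. Over the alternatives, the log2 ratio of covered bases over all windows stayed between -0.46 and -0.21 for female over male in B6, between -0.25 and -0.10 in CAST, between -0.44 and -0.15 for CAST over B6 in males and between -0.17 and -0.11 in females, and no direction reversed. Ugt2b37 kept a female-over-male log2 ratio of 1.68 to 2.26 in B6 and 2.31 to 2.80 in CAST wherever a ratio could be formed. With the gene body alone no male list had a covered base at Ugt2b37, so none was formed.

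The count of genes past 1.5-fold rests on the setting. In B6, female-higher genes fell from 1 to 0 with the gene body only, at a −log10 q-value of at least 5 and at a fold enrichment of at least 2, where Ugt2b37 no longer had the minimum of 1000 bp. Male-higher genes in B6 fell from 2 to 0 at that q-value and that fold enrichment and to 1 (Ugt2b36) with unique words only. Ugt2b1 also dropped out with the gene body only and at flanks of 5 and 25 kb, where the count stayed at 2 because Ugt2b5, Ugt2b5 and Ugt2b38 took its place beside Ugt2b36. In CAST, female-higher genes fell from 1 to 0 with the gene body only, and male-higher genes went from 0 to 1 with the gene body only, a 25 kb flank, the fold enrichment limit, or no minimum of covered bases. CAST-higher genes went from 0 to 1 in males at the fold enrichment limit and in females at the q-value limit, at equal list length and at the fold enrichment limit, and B6-higher genes from 0 to 1 in both sexes with the gene body only.

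With the gene body only, the male-only and female-only regions numbered 9 and 1 in B6 and 5 and 5 in CAST, 1 region was female-only in both strains, 1 was B6-only and 0 CAST-only. At the q-value limit 7 regions were male-only in B6, 1 male-only and 2 female-only in both strains, and 1 was B6-only. The 2 weaker regions of Ugt2b37 were those that left the female-only class of both strains. A 5 kb flank left 3 female-only regions in B6 and 0 CAST-only regions, and a 25 kb flank gave 2 CAST-only regions. Where an overlap of 50% was required for chaining, 3 regions were female-only in both strains. The 2 female peaks at chr5:87686328-87687121 were then no longer joined. Merging peaks up to 500 bp apart left 25 peaks in the B6 female list. In all, 150 of the 185 values recomputed stayed within 1.5-fold, with a count of 0 that stayed 0 taken as such. Of the 64 recomputed counts of genes past 1.5-fold, 47 stayed, many of them counts of 0, so the total says little about the genes that passed. The cause of these changes was not tested. The depth of each list was not analysed here and the spread between livers is not in the pooled lists, which limits every ratio near 1.5.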
